A study of Mus musculus with 16 samples.

Results

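The miR-221 and miR-222 hairpins each give a mature microRNA (miRNA) from either side of the stem, so the cluster has 4 arms, mmu-miR-221-3p, mmu-miR-221-5p, mmu-miR-222-3p and mmu-miR-222-5p (the species prefix is left out below). They were taken by name and are 4 of the 1167 mature miRNAs of the deposited count table. The level of an arm is the sum of its non-overlapping classes of reads. The libraries were made from small RNA of 3T9 mouse fibroblasts, a single immortalised line derived from embryo cells. Every culture had first been kept without serum for 72 h. The later groups then received medium with 10% fetal bovine serum and were taken at 1, 2, 4, 6, 8, 10 and 12 h, and the 0 h group was taken before serum. Each time has 2 libraries, 1 from each of 2 experiments described as independent. All libraries of an experiment were read in the same sequencing run, so the experiment and the run cannot be told apart.

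The libraries held 5852087 to 7783249 miRNA reads, and a count of 0 in a library allows a level of up to 0.385 to 0.513 CPM (reads of a miRNA scaled to a common number of miRNA reads in a library). Mesenchymal marker miRNAs summed to 126574 to 175108 CPM in each library, against sums of at most 1.90 CPM for blood, 2.42 CPM for epithelial, 11.2 CPM for neural, 0.629 CPM for liver and 0.784 CPM for pluripotent cell markers. In bulk libraries, more cells with a miRNA and more of it per cell cannot be told apart. CPM are relative to all miRNA reads of a library.

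A miRNA hairpin is cut by Drosha and then Dicer to a short duplex. One strand is usually kept by an Argonaute protein as the guide, and the other, the passenger strand, is mostly lost. The guide finds its target messenger RNAs mainly through the seed, bases 2 to 8 from its 5' end, so a read that starts at another base carries another seed. The 3p arms of miR-221 and miR-222 are the usual guides. They are known to repress the messenger RNA of the cell cycle inhibitor p27Kip1 (Cdkn1b) and are studied in proliferating cells. The ends of a miRNA also vary through the exact site of cutting, through trimming and through bases added to the 3' end by nucleotidyl transferases.

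The sequences of the 3 arms found in RefSeq (GRCm38.p6) are shown because the seed sets which arms can share targets. Bases 2 to 8 are in capitals.
miR-221-3p: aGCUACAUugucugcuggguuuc
miR-222-3p: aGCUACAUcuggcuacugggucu
miR-221-5p: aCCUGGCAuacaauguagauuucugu
The 3p arms are identical over their first 8 bases, so they share the seed, and miR-221-5p has another seed. miR-222-5p is named only.

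The hairpins are shown because the reads below are sorted by where they end relative to each arm. The arms found in RefSeq are in capitals.
Mir221: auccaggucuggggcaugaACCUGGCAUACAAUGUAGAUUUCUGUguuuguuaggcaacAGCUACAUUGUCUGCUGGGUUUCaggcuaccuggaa
Mir222: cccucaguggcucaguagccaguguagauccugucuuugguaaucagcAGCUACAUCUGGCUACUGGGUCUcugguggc
Mir221 lies at chrX:19146294-19146388 and Mir222 at chrX:19146893-19146971, both on the minus strand, with 504 bases between them. Within them miR-221-3p is at chrX:19146307-19146329, miR-221-5p at chrX:19146344-19146369 and miR-222-3p at chrX:19146901-19146923. No other gene of the annotation overlaps either hairpin, so both are intergenic there. The nearest gene upstream on the same strand, Gm14636, is 10009 bases from Mir222. The 3 hairpin bases after the RefSeq end are agg for miR-221-3p, guu for miR-221-5p and cug for miR-222-3p. The sources used here do not give the ends that the authors took as reference, so how many bases an extension adds cannot be stated.

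After serum, 3 of the 4 arms were called higher in the main fit, which has no term for the experiment. At 12 h miR-222-5p averaged 3.09-fold, miR-221-5p 2.88-fold and miR-222-3p 2.47-fold of the 0 h mean, and each was higher at 12 h than at 0 h in both experiments. miR-221-3p, the arm with the most reads at 0 h, averaged 1.35-fold (1.27 in experiment 1 and 1.42 in experiment 2) and did not pass that test. With the experiment as a block in edgeR it did pass (log2 change 0.42, adjusted p = 0.00557). In both hairpins the mean fold was larger for the usual passenger arm than for the guide, and the guides, which share a seed, had different folds. Both differences are tested as ratios below. With all 16 libraries and all reads, the difference between arms was called for miR-221 and not for miR-222.

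miR-221-5p was the first arm to pass the test. At 0, 1, 2, 4, 6, 8, 10 and 12 h its level was 147, 178, 263, 321, 412, 463, 546 and 457 CPM in experiment 1, and 171, 198, 235, 357, 361, 429, 589 and 457 CPM in experiment 2. Both libraries of each later time lay above both 0 h libraries, and both series were highest at 10 h. The mean was 567 ± 29.9 CPM at 10 h, against 159 ± 16.9 CPM at 0 h (SD, n = 2 each). The log2 change was 1.84 at 10 h (adjusted p = 1.62e-06) and 1.53 at 12 h (SE 0.15, adjusted p = 7.51e-06). It was called from 2 h on, when the log2 change was 0.65 (SE 0.15, adjusted p = 0.0242). The 2 h call was lost with total-count scaling (0.60, adjusted p = 0.0531) and without any 1 of the 0 h or 2 h libraries (0.63 to 0.77, adjusted p = 0.0526 to 0.162).

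The other passenger arm, miR-222-5p, had the fewest reads of the 4. At 0, 1, 2, 4, 6, 8, 10 and 12 h its level was 29.7, 27.0, 38.0, 50.8, 52.9, 75.6, 82.4 and 88.1 CPM in experiment 1, and 27.3, 34.1, 34.9, 53.1, 45.6, 81.2, 80.6 and 88.2 CPM in experiment 2. All libraries from 2 h on lay above both 0 h libraries, while at 1 h the groups overlapped. The mean was 88.1 ± 0.114 CPM at 12 h, against 28.5 ± 1.64 CPM at 0 h (SD, n = 2 each), and the log2 change at 12 h was 1.63 (SE 0.17, adjusted p = 9.21e-06). The first call was at 4 h (log2 change 0.87, SE 0.16, adjusted p = 0.00384), which was lost without the 0 h library of experiment 2 (adjusted p = 0.0512). The call at 6 h (log2 change 0.79, adjusted p = 0.00817) was lost without that library (adjusted p = 0.0756) or the 6 h library of experiment 1 (adjusted p = 0.0613). With only reads of reference length counted, the calls at 4, 6, 8 and 10 h were lost (log2 changes of 0.098, 0.022, 0.86 and 0.69), and that at 12 h was kept (0.96, adjusted p = 0.0273).

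In the main fit the guide miR-222-3p was the last of the 3 to be called. At 0, 1, 2, 4, 6, 8, 10 and 12 h its level was 1059, 1104, 995, 1760, 1977, 2312, 2077 and 2570 CPM in experiment 1, and 1238, 1273, 1501, 1686, 1898, 2628, 2479 and 3096 CPM in experiment 2. From 4 h on every library exceeded both 0 h libraries, and at 1 and 2 h they overlapped. The mean was 2833 ± 372 CPM at 12 h, against 1148 ± 127 CPM at 0 h (SD, n = 2 each), and the log2 change was 1.30 (SE 0.18, adjusted p = 0.000202). It was first called at 6 h (log2 change 0.75, adjusted p = 0.0187), a call that was lost without any 1 of the 0 h or 6 h libraries (0.71 to 0.89, adjusted p = 0.0612 to 0.144). At 4 h the log2 change was 0.59 (SE 0.18, adjusted p = 0.0694), and with the experiment as a block it was 0.60 (adjusted p = 0.00525).

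The guide miR-221-3p had the smallest change at 12 h. At 0, 1, 2, 4, 6, 8, 10 and 12 h its level was 1651, 1701, 1651, 1718, 1755, 1801, 1976 and 2104 CPM in experiment 1, and 1839, 2168, 2529, 2202, 2134, 2225, 2562 and 2602 CPM in experiment 2. Experiment 2 was the higher at every time, and only at 10 and 12 h did both libraries lie above both 0 h libraries. The log2 change at 12 h was 0.43 (SE 0.22, adjusted p = 0.219). With the experiment as a block, which removes the difference between experiments, miR-221-3p was called at 10 h (0.37, adjusted p = 0.0149), at 12 h (0.42, adjusted p = 0.00557) and over the whole course (0.0260 log2 units per hour, adjusted p = 0.00404). Without the block the slope was 0.0259 log2 units per hour (adjusted p = 0.114). The arm was also called for the trend without the 2 h library of experiment 2 (slope 0.0341, adjusted p = 0.0223), and at 12 h when only reads of reference length were counted (log2 change 0.93, adjusted p = 0.0254).

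**Figure D1:**
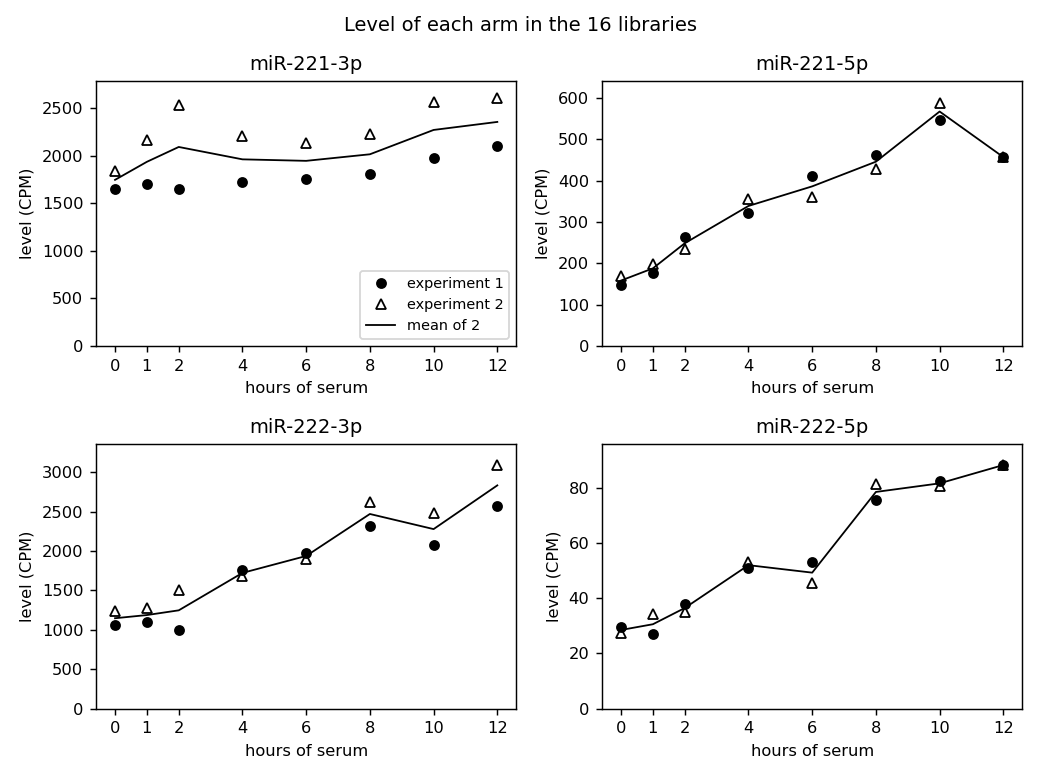
Level of each arm in CPM on a linear axis from 0 against hours of serum, 1 panel an arm, with a point for each library, a marker shape for each experiment and a line through the means of 2 libraries. miR-221-5p peaks at 10 h with a mean of 567 CPM, miR-222-3p and miR-222-5p are highest at 12 h, and the points of miR-221-3p for experiment 2 lie above those for experiment 1 at each time.

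The same count was taken over all 449 tested miRNAs. At 1 h 0 of the 4 arms were called by edgeR (log2 changes of 0.05 to 0.25), 0 at an unadjusted p under 0.05 and 0 by DESeq2 or limma-voom, where 0.223% of tested miRNAs were called higher. The number called higher was 1 of 4 at 2 h (1.56% of all tested), 2 of 4 at 4 h (4.68%), and 3 of 4 at 6 h (4.9%), 8 h (6.24%), 10 h (7.13%) and 12 h (8.24%). For the linear trend 3 of 4 were called higher (12% of all), with slopes of 0.144 log2 units per hour for miR-222-5p, 0.140 for miR-221-5p and 0.114 for miR-222-3p. At 12 h 37 miRNAs were called higher and 27 lower, and with total-count scaling, which moved the median of all miRNAs by -0.16, 23 higher and 45 lower. For the trend the split was 54 higher and 59 lower, and with total counts 37 higher and 111 lower. The test of any change over the 7 later times called the same 3 arms, against 13.8% of all tested miRNAs. These counts are from the main fit, without the experiment as a block. With the block miR-222-3p was also called higher at 4 h, and miR-221-3p at 10 h, at 12 h and for the trend. At 12 h the block called 108 of all miRNAs in either direction, against 64 without it. In order of log2 change at 12 h, the arms ranked 20 (miR-222-5p), 21 (miR-221-5p), 26 (miR-222-3p) and 91 (miR-221-3p) of 449, and the median of all was 0.0047. The slope did not differ by a called amount between the experiments for any of the arms (adjusted p = 0.972 to 0.982). With edgeR, 0 of the 449 miRNAs had such a difference and 24 had an unadjusted p under 0.05. No other tool was run on this difference.

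**Figure D2:**
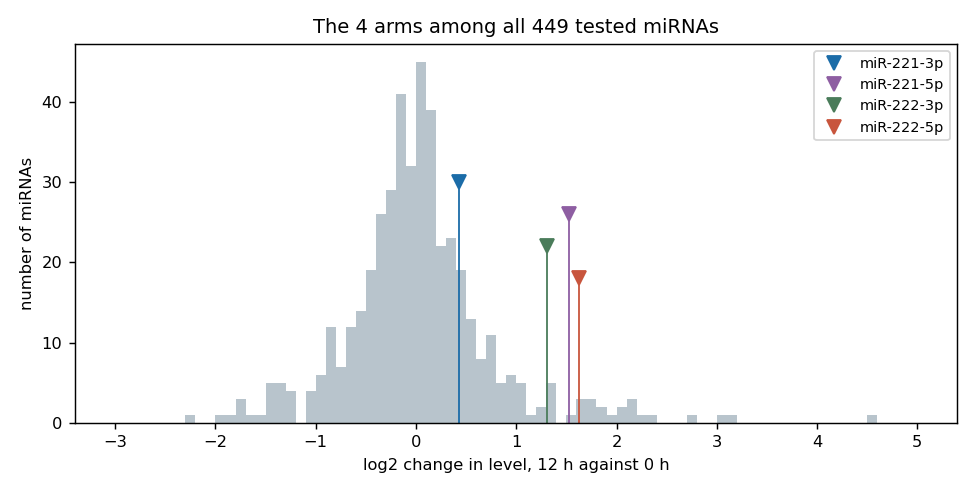
Grey bars count the 449 tested miRNAs by their log2 change in level at 12 h against 0 h, and coloured markers place the 4 arms on that axis, with marker heights chosen for legibility only. miR-222-5p, miR-221-5p and miR-222-3p lie at 1.63, 1.53 and 1.30 and miR-221-3p at 0.43, all above the upper quartile of all miRNAs at 0.32.

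The ratio of the arms within a hairpin needs no scaling between libraries. For miR-221, reads of the 5p arm per 100 reads of the 3p arm were 8.88, 10.5, 15.9, 18.7, 23.5, 25.7, 27.6 and 21.7 in experiment 1 at 0, 1, 2, 4, 6, 8, 10 and 12 h, and 9.27, 9.14, 9.27, 16.2, 16.9, 19.3, 23.0 and 17.6 in experiment 2. From 4 h on all libraries exceeded all those of 0 and 1 h, and the ratio was higher in experiment 1 than in experiment 2 at each time after 0 h. The mean was 19.6 ± 2.93 at 12 h, against 9.08 ± 0.279 at 0 h (SD, n = 2 each). The log2 ratio rose by 0.113 per hour (SE 0.0191, adjusted p = 0.000241 in limma) and ranked 5 of 103 hairpins. Its change at 12 h was 1.11 (SE 0.26, adjusted p = 0.00946), but this call was lost without the 0 h library of experiment 1 (adjusted p = 0.0605) or of experiment 2 (adjusted p = 0.0949), or without the 12 h library of experiment 1 (adjusted p = 0.0730).

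For miR-222 the same ratio was 3.14 ± 0.408 at 12 h, against 2.50 ± 0.419 at 0 h (SD, n = 2 each), and over all libraries it lay between 2.21 and 3.97. Its log2 change at 12 h was 0.33 (SE 0.24, adjusted p = 0.380 in limma), and its log2 slope was 0.0307 per hour (SE 0.0138, adjusted p = 0.107). The slope passed the threshold without the 2 h library of experiment 1 (0.0377, adjusted p = 0.0272). Thus 1 of the 2 hairpins was called higher for the trend, where 13.6% of the 103 hairpins were, and the same hairpin at 12 h, where 4.85% were. Counting only reads of reference length, the miR-222 slope was 0.0894 (adjusted p = 0.00548). Such reads were 2.67% of the miR-222-3p reads and 22.4% of the miR-222-5p reads over all libraries. Whether the slopes of the 2 hairpins differ from each other was not tested.

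Between the hairpins, the ratio of the 3p arms rose with time. Reads of miR-222-3p per 100 reads of miR-221-3p were 64.1, 64.9, 60.3, 102, 113, 128, 105 and 122 in experiment 1 at 0, 1, 2, 4, 6, 8, 10 and 12 h, and 67.3, 58.7, 59.4, 76.6, 88.9, 118, 96.8 and 119 in experiment 2. All libraries from 4 h on lay above all libraries of 0, 1 and 2 h. At 0 h miR-221-3p was thus the guide with more reads in both libraries, and at 8 and 12 h miR-222-3p was. In CPM the ranges of the 2 guides overlapped at 12 h. The log2 ratio rose with hours with Pearson's r = 0.869 (permutation p = 0.00011, adjusted over 2 ratios 0.00022) and Spearman's rho = 0.823 (permutation p = 0.00026, adjusted 0.00052) over 16 libraries. Without the 2 libraries farthest from the median time, which are both of the 12 h libraries, r was 0.847. Within experiment 1 r was 0.856 (exact permutation p = 0.00833, adjusted 0.0167, n = 8), and within experiment 2 it was 0.914 (exact permutation p = 0.00313, adjusted 0.00625, n = 8). Counting only reads of reference length turned the relation round, with r = -0.718 (permutation p = 0.00221, adjusted 0.00442) on a class that holds 2.67% of the miR-222-3p reads.

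For the 5p arms no relation passed the test when all reads were counted. Reads of miR-222-5p per 100 reads of miR-221-5p averaged 19.3 ± 0.00807 at 12 h, against 18.1 ± 2.97 at 0 h (SD, n = 2 each), and lay between 12.6 and 20.2 over all libraries. Pearson's r with hours was 0.109 (permutation p = 0.684) and Spearman's rho 0.00592 (permutation p = 0.992). Without the 2 libraries farthest from the median time, both of 12 h, Pearson's r was -0.310. It was 0.0413 in experiment 1 (exact permutation p = 0.923, n = 8) and 0.177 in experiment 2 (exact permutation p = 0.666, n = 8). Counting only reads of reference length gave r = -0.566 (permutation p = 0.0237, adjusted 0.0237) and rho = -0.503 (permutation p = 0.0506).

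**Figure D3:**
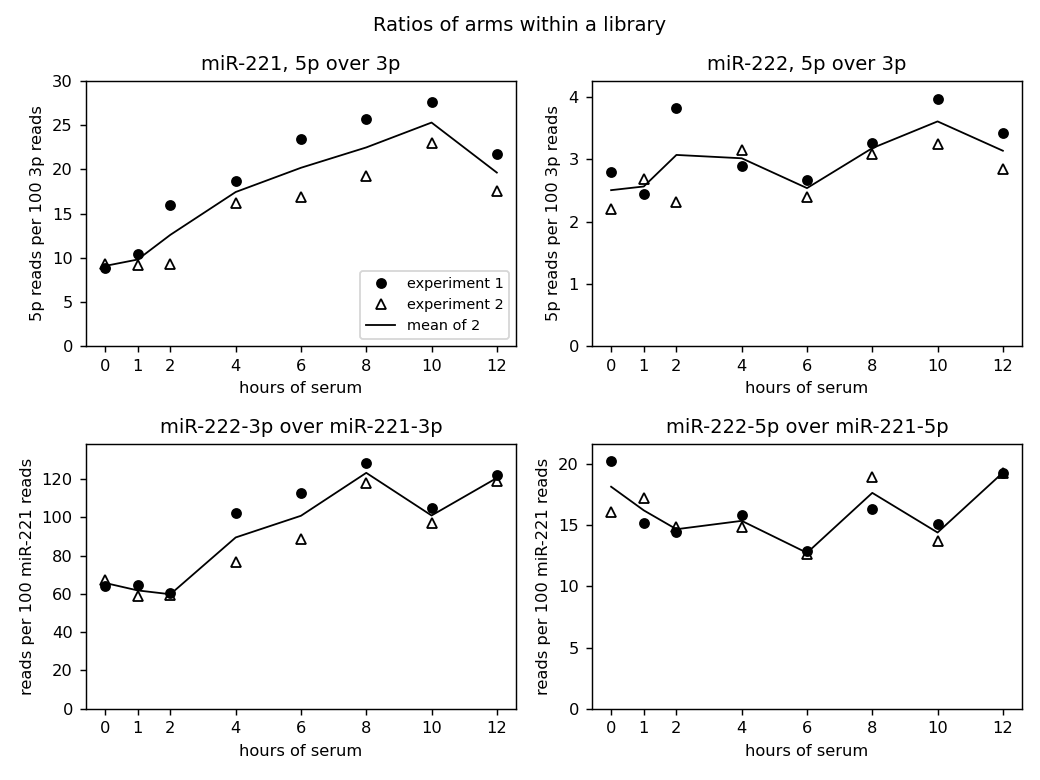
Ratios of reads against hours of serum, with a point for each library, a marker shape for each experiment and a line through the means of 2 libraries. The miR-221 5p to 3p ratio and the miR-222-3p to miR-221-3p ratio are higher in every library from 4 h on than at 0 h, while the miR-222 5p to 3p ratio stays between 2.21 and 3.97 per 100 and the ratio of the 5p arms between 12.6 and 20.2 per 100.

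The reads of each arm fell into different end classes, and the shares of the classes moved with time. Reads are sorted as equal to the reference, trimmed, extended at the 3' end or extended at the 5' end. Added 3' bases are templated (they match the hairpin) or non-templated. Each trend is the slope of the log2 odds of a class among the reads of that arm, fitted with limma over all miRNAs with enough reads. The trimmed share fell in all 4 arms, where 21.5% of tested miRNAs were called lower. The reference share rose in both miR-221 arms (13.9% of all called higher) and fell in both miR-222 arms (32.9% called lower). The 3' extended share rose in both 3p arms (33.6% called higher) and fell in miR-222-5p (11.2% called lower). Changes of this kind were common among all miRNAs, with 46.8% called for the reference class, 44.8% for the trimmed class and 44.9% for the 3' extended class in either direction.

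miR-221-3p was mostly trimmed before serum. Its trimmed share was 59.6, 58.1, 57.5, 52.4, 51.3, 48.7, 47.9 and 46.8% in experiment 1 at 0, 1, 2, 4, 6, 8, 10 and 12 h, and 60.5, 57.3, 55.0, 54.9, 51.1, 48.0, 46.2 and 45.7% in experiment 2. In both experiments the share at 12 h was below that of every earlier time, and the experiments differed less at any time than 12 h did from 0 h. The slope was -0.0677 log2 odds per hour (SE 0.00480, adjusted p = 2.77e-09). Its reference share was 42.2 ± 3.37% at 12 h, against 30.9 ± 0.167% at 0 h (slope 0.0574, adjusted p = 3.80e-06). Its 3' extended share was 11.5 ± 2.63% at 12 h, against 9.07 ± 0.845% at 0 h (slope 0.0378, adjusted p = 0.0120), a call lost without the 12 h library of experiment 1 (0.0295, adjusted p = 0.0660). Most of these added bases were non-templated U, in 7.38 ± 2.35% of reads at 12 h, against 5.98 ± 0.772% at 0 h (slope 0.0333, adjusted p = 0.141, and 0.000617 with the experiment as a block). All non-templated additions together had a slope of 0.0365 (adjusted p = 0.0559, and 1.55e-05 with the block).

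miR-221-5p was mostly of reference length and became more so. That share was 59.0, 61.0, 69.5, 72.5, 74.2, 75.4, 76.1 and 73.5% in experiment 1 at 0, 1, 2, 4, 6, 8, 10 and 12 h, and 61.0, 59.9, 67.2, 73.7, 72.7, 76.6, 76.6 and 75.4% in experiment 2. It stepped up between 1 and 2 h, with no overlap between the libraries of 0 and 1 h and those from 2 h on. The slope was 0.0880 (SE 0.0132, adjusted p = 2.39e-05), ranking 4 of 231 miRNAs. The trimmed share was 17.6 ± 0.115% at 12 h, against 33.4 ± 2.38% at 0 h (slope -0.111, adjusted p = 1.54e-05). Its 3' extended share (7.12% at 12 h, 5.89% at 0 h) and its 5' extended share (0.835% at 12 h, 0.676% at 0 h) were not called.

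miR-222-3p was read almost entirely as a form longer at the 3' end than the authors' reference. The 3' extended share was 97.2 ± 0.237% at 12 h, against 93.7 ± 0.0989% at 0 h (slope 0.112, SE 0.0169, adjusted p = 1.74e-05). Over all libraries it lay between 91.9 and 97.4%. The reference share was 1.78 ± 0.183% at 12 h, against 4.24 ± 0.128% at 0 h (slope -0.114, adjusted p = 1.55e-05, ranking 228 of 231). The trimmed share was 0.430% at 12 h, against 1.08% at 0 h (slope -0.124, adjusted p = 5.13e-05), and the 5' extended share was 0.544% at 12 h, against 0.975% at 0 h (slope -0.0820, adjusted p = 0.00679). The 3' extended class thus gained on the other 3 classes of this arm. An analysis of reference-length reads alone would read 2.67% of the miR-222-3p reads, and on those reads its level had a log2 change of 0.08 at 12 h (adjusted p = 0.860), and none of its calls at 6, 8, 10 and 12 h, for the trend or for any change was made.

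miR-222-5p changed at its 5' end. Reads extended there made up 20.3, 27.4, 36.2, 45.3, 44.7, 46.7, 49.0 and 46.5% in experiment 1 at 0, 1, 2, 4, 6, 8, 10 and 12 h, and 13.9, 21.0, 31.2, 46.1, 42.8, 48.9, 48.7 and 50.6% in experiment 2. All libraries from 1 h on were above both 0 h libraries, and the share stayed between 42.8 and 50.6% from 4 h on. At 12 h 274 of 589 reads (95% Wilson interval 42.5 to 50.6%) and 284 of 561 reads (46.5 to 54.7%) were 5' extended, against 43 of 212 reads (15.4 to 26.2%) and 28 of 202 reads (9.77 to 19.3%) at 0 h. The slope was 0.162 log2 odds per hour (SE 0.0277, adjusted p = 0.000354) and the change at 12 h was 2.21 (SE 0.26, adjusted p = 0.000133). Both ranked 1 of the 48 miRNAs tested for this class. For the trend 1 of the 3 arms tested was called higher, where 10.4% of miRNAs were, and 1 was called lower, miR-222-3p, where 4.17% were. At 12 h 4.17% of miRNAs were called higher. miR-221-3p had 0 to 5 such reads in a library and was not tested. The other classes of miR-222-5p fell as shares. The reference share was 20.9 ± 1.62% at 12 h, against 34.4 ± 5.96% at 0 h (slope -0.0699, adjusted p = 0.00970). The trimmed share was 12.4 ± 0.798% at 12 h, against 23.7 ± 0.125% at 0 h (slope -0.0996, adjusted p = 8.33e-05), and the 3' extended share was 18.1 ± 2.08% at 12 h, against 24.9 ± 1.54% at 0 h (slope -0.0449, adjusted p = 0.0107).

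**Figure D4:**
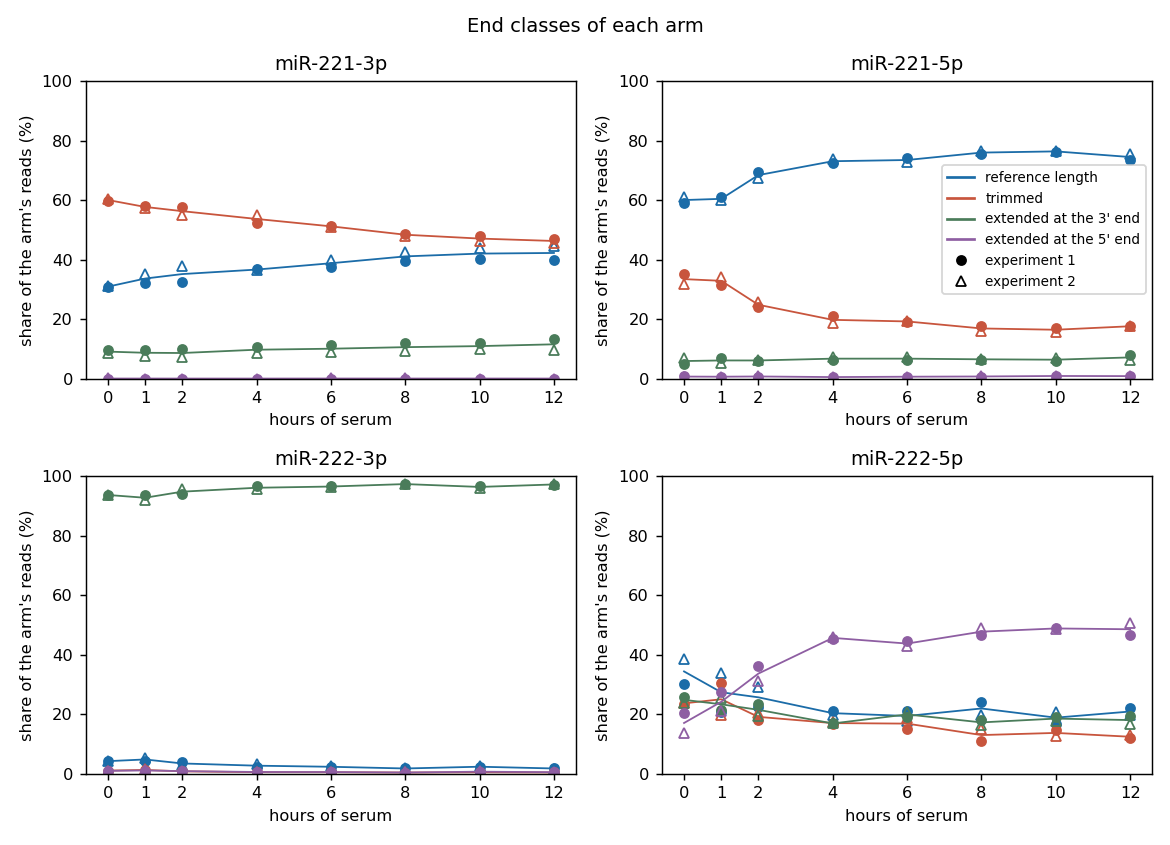
Share of the reads of each arm in each end class, in percent, against hours of serum, with a point for each library and a line through the means of 2 libraries. The trimmed share falls in miR-221-3p and miR-221-5p, the 3' extended share of miR-222-3p stays above 91%, and the 5' extended share of miR-222-5p reaches a mean of 48.6% at 12 h, against 17.1% at 0 h.

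Non-templated bases are added after the hairpin has been cut. Reads with such bases fell as a share of the arm's reads in both miR-222 arms, 2 of the 4 arms being called lower against 7.69% of 195 miRNAs. It was 1.57 ± 0.319% at 12 h, against 3.33 ± 0.124% at 0 h, for miR-222-3p (slope -0.104, SE 0.00812, adjusted p = 1.24e-08, ranking 194 of 195). For miR-222-5p it was 4.43 ± 0.462% at 12 h, against 10.4 ± 0.670% at 0 h (slope -0.0946, adjusted p = 6.28e-05, ranking 193). Across all 195 miRNAs 35.4% were called higher, and the median slope was 0.0203. Tails of A were called higher in 2 of the 3 arms tested (19.5% of 133 miRNAs) and lower in 1 (3.01%). They were in 0.638 ± 0.0822% of miR-221-3p reads at 12 h, against 0.294 ± 0.0515% at 0 h (slope 0.103, adjusted p = 8.37e-06), and in 1.87 ± 0.172% of miR-221-5p reads at 12 h, against 1.13 ± 0.0240% at 0 h (slope 0.0684, adjusted p = 0.00893). In miR-222-3p the slope for A tails was -0.121 (adjusted p = 0.00101). Tails of U fell as a share in miR-222-3p, with a slope of -0.134 (adjusted p = 0.000504) that was the lowest of 122 miRNAs, and 12.3% of those miRNAs were called lower. Both tails are rare in this arm. Over the 2 libraries of a time, U-tailed reads numbered 24 at 12 h, against 35 at 0 h, and A-tailed reads 30, against 32. All reads of the arm numbered 36876 at 12 h, against 16714 at 0 h.

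A share can fall while the reads themselves rise, so the level of every class was also tested, over 1172 miRNA classes. The 5' extended reads of miR-222-5p were at 41.0 and 44.5 CPM at 12 h, against 6.02 and 3.79 CPM at 0 h. The mean was 8.72-fold of that at 0 h, the largest of the tested classes of the 4 arms, with no overlap between the groups. The log2 change was 3.12 (SE 0.24, adjusted p = 2.77e-06), where 8.19% of all classes were called higher. It ranked 6 of 1172, and 1 of the 59 templated 5' extended classes, of which 10 were called higher and 2 lower with a median of 0.17. The change was 2.27 at 4 h (adjusted p = 8.21e-05), where 2.56% of classes were called higher. At 2 h it was 1.33 (adjusted p = 0.0122, with 0.853% of classes called higher), a call lost without the 0 h library of experiment 2 (adjusted p = 0.198) or the 2 h library of experiment 1 (adjusted p = 0.0592). These reads made up 63.4% of the whole increase of miR-222-5p in CPM at 12 h over 0 h, 59.8% in experiment 1 and 66.9% in experiment 2.

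In the other arms the increase lay in other classes. Templated 3' extended reads made up 99.4% of the increase of miR-222-3p, with a log2 change of 1.39 at 12 h (adjusted p = 0.000268), while its reference reads were at a log2 change of 0.04 (adjusted p = 0.952, and -0.12 with total counts). Reference reads made up 82.1% of the increase of miR-221-5p, with a log2 change of 1.84 (adjusted p = 2.77e-06). Its trimmed reads had a log2 change of 0.61 (adjusted p = 0.0184), a call lost with total-count scaling (0.45, adjusted p = 0.0790) and without any 1 of the 0 h or 12 h libraries (adjusted p = 0.0599 to 0.0938). Of the increase of miR-221-3p in CPM, 75.7% were reference reads (72.9% in experiment 1 and 77.4% in experiment 2). Trimmed reads were 0.118% of the increase in experiment 1 and 10.2% in experiment 2, and non-templated 3' extended reads were 20.9% and 8.94%. The reference reads of this guide had a log2 change of 0.89 at 12 h (adjusted p = 0.0556, and 4.05e-05 with the experiment as a block), and its trimmed reads 0.05 (adjusted p = 0.932, and -0.10 with total counts). Its non-templated 3' extended reads rose by 0.74 (adjusted p = 0.00228). The templated 3' extended reads of miR-222-5p rose by 1.55 (adjusted p = 0.00104) and made up 13.3% of its increase. For miR-222-5p the reference reads had a log2 change of 0.92 (adjusted p = 0.0541, and 0.0126 with the block) and the trimmed reads 0.70 (adjusted p = 0.0579, and 0.0299 with the block). The non-templated 3' extended reads, whose share fell in both miR-222 arms, were at a mean of 43.8 CPM at 12 h, against 38.2 CPM at 0 h, in miR-222-3p (log2 change 0.20, adjusted p = 0.618). In miR-222-5p they were at 3.82 CPM at 12 h, against 2.96 CPM at 0 h (log2 change 0.37, adjusted p = 0.477).

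**Figure D5:**
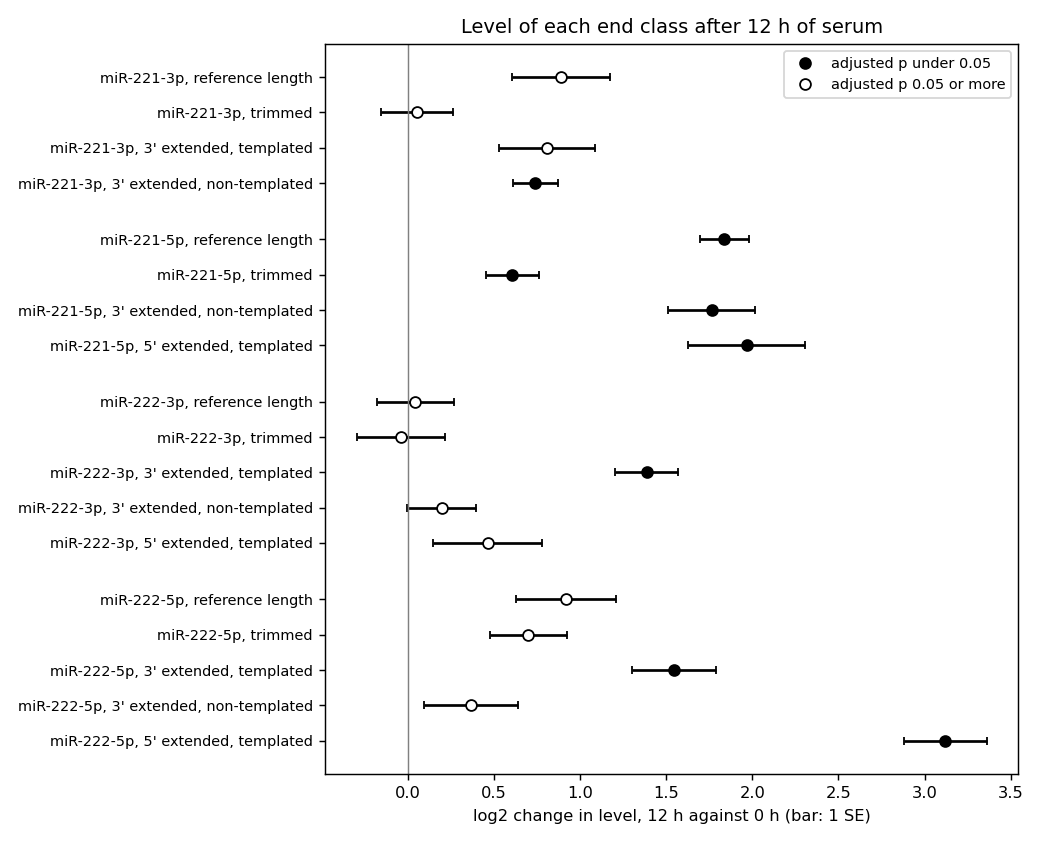
Log2 change in level at 12 h against 0 h of each end class of the 4 arms, with bars of 1 SE and filled points where the adjusted p is under 0.05. The 5' extended reads of miR-222-5p lie at 3.12, against 0.04 for the reference reads of miR-222-3p and 0.05 for the trimmed reads of miR-221-3p.

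Across the 16 libraries, log2 levels of miR-221-5p and miR-222-5p were correlated at r = 0.946, those of miR-222-3p and miR-222-5p at 0.928, and those of miR-221-5p and miR-222-3p at 0.882. miR-221-3p was correlated with the other arms at 0.435 to 0.588. These values describe libraries that share their times, experiments and scaling, and carry no test. Among 265 miRNAs compared with each arm, those most like miR-222-3p were miR-6539 (r = 0.971), miR-29a-3p (0.936) and miR-125b-1-3p (0.935). For miR-222-5p they were miR-29a-3p (0.954), miR-125b-1-3p (0.953) and miR-221-5p (0.946), and for miR-221-5p they were miR-222-5p (0.946), miR-125b-1-3p (0.945) and miR-29a-3p (0.931). miR-221-3p was most like other miRNAs, miR-99b-3p (0.865), miR-106b-3p (0.836) and miR-486b-3p (0.820). The only other miRNA of the sequence table with the seed of the 3p arms, miR-1928, has no entry in the counts used here.

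Of 12 tested arms of other miRNAs known to be induced by serum, AP-1 or NF-kB, 5 were called higher at 12 h (8.24% of all tested miRNAs) and 0 lower by edgeR (0 lower at an unadjusted p under 0.05), with a median log2 change of 0.62, against 0.0047 over all tested miRNAs. For the linear trend 6 were called higher (12% of all) and 0 lower (0 at an unadjusted p under 0.05). No other tool was run on this list. It was chosen with earlier results of these data known and holds both arms of some hairpins, so these counts are a description only. miR-155-5p, an inducible miRNA of immune cells, averaged 282 ± 43.9 CPM at 12 h, against 79.7 ± 5.04 CPM at 0 h (log2 change 1.83, adjusted p = 7.96e-05). miR-212-3p, from a cluster induced through CREB, averaged 6.53 ± 0.992 CPM at 12 h, against 2.47 ± 0.720 CPM at 0 h (log2 change 1.39, adjusted p = 0.00365). Smaller changes passed for miR-21a-5p (0.59, adjusted p = 0.0434) and miR-31-5p (0.38, adjusted p = 0.0165). The 3 miR-221 and miR-222 arms called higher in the main fit had log2 changes at 12 h between those of miR-21a-5p and miR-155-5p.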

How the data were processed

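The deposited values are raw counts of reads, by mature miRNA and by class of read end, for 16 libraries, per the file headers. The class names were taken at their word. The submitters' processing notes list CASAVA 1.8.0, and the sources used here name no aligner, miRBase release or rule for reads with several matches. Of 6511 entries, 1 identical duplicate was dropped, and 8 non-overlapping classes were summed for each of 1167 miRNAs.

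Levels were tested with edgeR 4.0.16 (quasi-likelihood F-test, TMM scaling with factors of 0.935 to 1.07, filterByExpr with a minimum count of 10, all 16 libraries in 1 fit, Benjamini-Hochberg adjustment over 449 miRNAs at 0.05, R 4.3.3). The filter left out 718 miRNAs, and all 4 arms passed it. CPM are TMM-scaled. SE of a log2 change is its size over the square root of F. Arm ratios and class odds used limma 3.58.1 with 0.5 reads added, over hairpins with both arms at a mean of 10 reads, and over miRNAs with a mean of 100 reads and 10 in the class. Ratios between hairpins were tested with 100000 permutations, two-sided. The fit over classes and the test of slopes between experiments were added after seeing the data. Scripts were tested on simulated data. Sequences came from RefSeq (GRCm38.p6) for 3 of the 4 arms.

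Same-numbered libraries deviated together in all 28 pairs of times (correlations of 0.208 to 0.800), and the design text calls the replicates independent experiments. Numbers were therefore taken to pair the libraries. Values with the experiment as a block are given where they change a call of a level, arm ratio or end class of the 4 arms. The named miRNAs were the 4 arms, the 3 most correlated with each among those of at least 10 CPM, those sharing a seed, and the most abundant called arm of each hairpin of the inducible list. Members and lists were chosen with earlier results of these data known. Alternatives were DESeq2 1.42.0 and its size factors, limma-voom, total counts, other filters, the block, reference-length reads, each experiment alone, subsets of times and each library left out. Intervals and limits (3 counts) cover counting error only.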

Additional observations from a re-analysis of the deposited data

How the results depend on the processing

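Of the results that answer a comparison, 654 recomputed values kept their direction and side of the threshold and 6 lost it, 9 gained it, 11 counts moved by over 1.5 times and 5 values changed sign. The calls of miR-221-5p, miR-222-3p and miR-222-5p at 8, 10 and 12 h and their trends held without any 1 library. Counts called over all miRNAs were 62 for any change, against 101 with no filter on low counts, 39 with a mean of at least 10 CPM, 110 with the replicate block and 36 to 60 without 1 library, the fewest without the 0 h library of experiment 2. At 12 h 64 were called, against 108 with the replicate block and 37 to 65 without 1 library, with at most 42 where it was any of the 0 h or 12 h libraries. For the trend 113 were called, against 59 without the 0 h libraries and 60 in experiment 2 alone. With the replicate block the log2 change of miR-221-3p was 0.42 at 12 h and its slope 0.0260 per hour, both called. It was also called with only the 0 h and 12 h libraries fitted (0.41) and, for the slope, in experiment 1 alone (0.0287), and the slope was 0.0202 to 0.0341 without 1 library. Among the values reported here, the block changed no call that is not given with its value, other than those of the 3' extended share of miR-221-3p (0.37, adjusted p = 0.000951) and the 5' extended share of miR-222-3p (-0.85, adjusted p = 0.0170) at 12 h and of the templated 3' extended reads of miR-221-3p (0.81, adjusted p = 0.000886), which it gained.

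Counting only reads of reference length changed most. At 12 h it gave log2 changes of 0.93 for miR-221-3p and 0.080 for miR-222-3p, with slopes of 0.0668 and 0.00746 per hour. miR-222-3p was then at -0.21, -0.081, -0.059 and -0.095 at 2, 4, 6 and 8 h, and miR-222-5p at -0.23 and -0.060 at 1 and 2 h. Calls were lost for miR-222-3p at 10 h (0.19, adjusted p = 0.624) and for any change (adjusted p = 0.818), and for miR-222-5p at 4 h (0.098, adjusted p = 0.905), 6 h (0.022, adjusted p = 0.976), 8 h (0.86, adjusted p = 0.0604) and 10 h (0.69, adjusted p = 0.124). The slope of the miR-222 arm ratio was 0.0894. The relation with hours turned to r = -0.718 for the 3p arms of the hairpins, and to -0.566 for their 5p arms (permutation p = 0.0237). With all reads counted, r for the 5p arms was -0.310 without the 2 libraries farthest from the median time, both of 12 h. It was -0.0466 to 0.310 without 1 library. Only 2.67% of the miR-222-3p reads are of reference length. The level of reference-length reads moves with their share of an arm as well as with the level of the arm. The mean share was 42.2% at 12 h, against 30.9% at 0 h, for miR-221-3p. It was 1.78% at 12 h, against 4.24% at 0 h, for miR-222-3p, and 20.9%, against 34.4%, for miR-222-5p. What moved these shares was not tested.

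Leaving out 1 library gave slopes of 0.0246 to 0.0382 for the miR-222 arm ratio, changes of 0.95 to 1.26 for the miR-221 arm ratio at 12 h, and slopes of 0.0295 to 0.0465 for the 3' extended share of miR-221-3p. It moved small log2 changes over 0, with ranges of -0.018 to 0.34 at 1 h, -0.047 to 0.66 at 2 h and -0.0090 to 0.34 at 4 h for miR-221-3p, of -0.037 to 0.17 at 1 h and -0.17 to 0.51 at 2 h for miR-222-3p, and of -0.059 to 0.28 at 1 h for miR-222-5p. At 12 h it did so for the trimmed reads of miR-221-3p (-0.055 to 0.20), the reference reads (-0.058 to 0.19) and trimmed reads (-0.091 to 0.057) of miR-222-3p, and the 5' extended share of miR-221-5p (-0.25 to 0.96), and for the slope of its U tails (-8.79e-05 to 0.0290). Total counts put the trimmed reads of miR-221-3p at -0.10 and the reference reads of miR-222-3p at -0.12.

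With 2 libraries a time, p-values rest on a spread shared over all times. At 0 h miR-222-5p had 202 and 212 reads, so its class shares there have 95% intervals up to 10.8 percentage points wide for 5' extended reads.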
